A study of Caenorhabditis elegans with 2 samples.

Results

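Heterochronic genes time the development of the nematode Caenorhabditis elegans, and the microRNAs that switch them off act through Argonaute proteins and their GW182-type partners. The 10 genes described here are the heterochronic genes lin-14, lin-28, lin-41, lin-42, lin-46 and hbl-1, the microRNA Argonaute genes alg-1 and alg-2, and the GW182-like genes ain-1 and ain-2. They were chosen by gene name from the deposited table of RPKM values, and all 10 had a row among the 19874 genes analysed. RPKM is the number of reads scaled to the length of the gene and to the reads of the library, so levels of different genes can be set side by side.

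Total RNA was sequenced from 2 samples, replicates 1 and 2, of a single group of worms that carry daf-2(e1370) together with daf-12(m20). daf-2 encodes the insulin/IGF-like receptor and e1370 lowers its signalling, while daf-12 encodes a nuclear hormone receptor that is itself a heterochronic gene. The worms were grown at 20 °C on OP50 bacteria as cultures of mixed stages, and their age is not given. Whether the replicates were separate cultures is not in the labels either, so the spread between them may be technical. With no other genotype analysed here, the levels carry no information on what either mutation changed, and no test between groups was possible. Bulk RNA of whole animals also cannot tell fewer cells of a type, or fewer animals of a stage, from less RNA per cell.

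In the pathway as it is known, early larvae make LIN-14, LIN-28 and HBL-1. The microRNA lin-4 lowers lin-14 and lin-28, and microRNAs of the let-7 family lower hbl-1 and, late in larval life, lin-41. DAF-12 bound to its steroid ligand switches on let-7 family microRNAs, and without the ligand it represses them. A microRNA is carried by ALG-1 or ALG-2, which recruit AIN-1 or AIN-2 to silence the target. The libraries measured gene transcripts and gave no level of a mature microRNA here.

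The depth of each library was read from the steps between low RPKM values, and came to about 10540000 and 14650000 reads for replicates 1 and 2. A floor of 3 reads in 1 kb of coding sequence corresponded to 0.285 and 0.205 RPKM, respectively. The 10 genes rested on between 127 and 1147 estimated reads in replicate 1 and between 153 and 1522 in replicate 2, far above that floor. Intervals below are exact 95% Poisson intervals for a level and exact conditional binomial intervals for a ratio. They cover counting error only, since reads without molecular identifiers are not independent molecules.

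All 10 genes were expressed at intermediate levels, over a roughly even spread from hbl-1 at 4.83 to lin-28 at 49.7 RPKM. Their median was 18.7 RPKM, beside 6.17 RPKM for all genes and 14.1 RPKM for the 14313 genes with a mean of at least 1 RPKM. Of the 10 genes, 8 had a mean of at least 10 RPKM, a limit reached by 42.0% of all genes, and lin-46 lay just below it. All 10 were at 1 RPKM or more, as were 72.0% of all genes. Together they held 0.0221% of the summed RPKM in replicate 1 and 0.0212% in replicate 2.

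**Figure D1:**
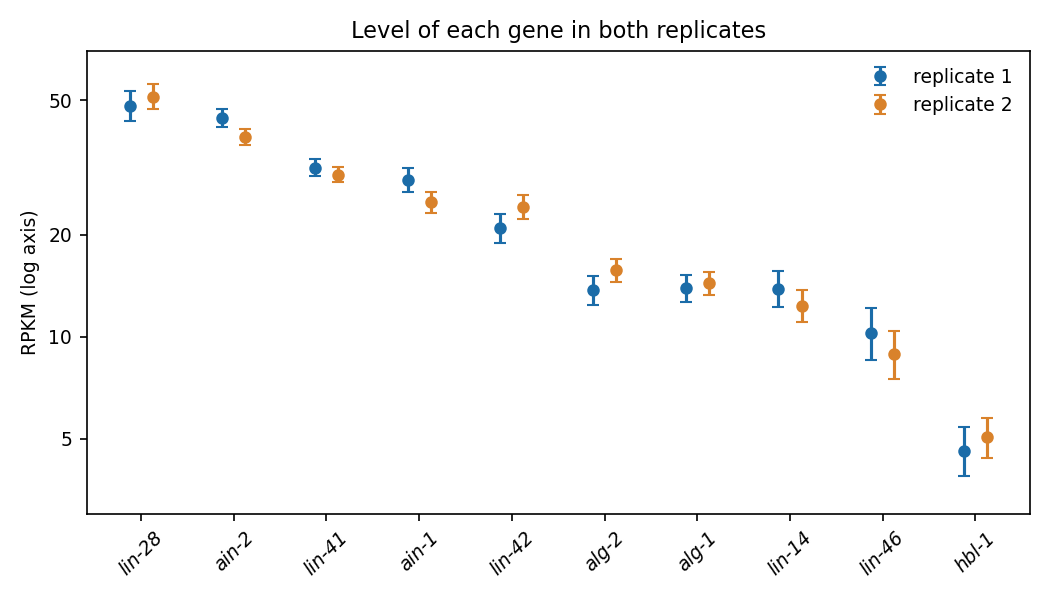
RPKM of each gene (log axis) in replicate 1 (blue) and replicate 2 (orange), ordered by mean level, with exact 95% Poisson intervals that cover counting error only. lin-28 is highest with a mean of 49.7 RPKM and hbl-1 lowest with a mean of 4.83 RPKM, and the values of alg-1 and alg-2 overlap.

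Among the early regulators, lin-28 stood far above lin-14 and hbl-1. lin-28 encodes an RNA-binding protein that blocks the maturation of let-7 and promotes early larval cell fates. It measured 48.1 RPKM in replicate 1 (43.3 to 53.2) and 51.3 RPKM (47.1 to 55.8) in replicate 2, which gave 49.7 ± 2.26 RPKM (SD, n = 2, as for every error below). The replicates lay within each other's counting intervals, and 85.8% of all genes had a lower mean.

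lin-14, which encodes a DNA-binding protein of the first larval stage and was the first known microRNA target, measured 13.9 RPKM in replicate 1 (12.2 to 15.6) and 12.3 RPKM (11.04 to 13.8) in replicate 2, or 13.1 ± 1.07 RPKM. Its counting intervals overlapped. Per length, lin-28 RNA exceeded lin-14 RNA 3.47-fold in replicate 1 (95% interval 2.96 to 4.08) and 4.16-fold in replicate 2 (3.62 to 4.78).

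hbl-1 encodes a zinc finger protein of the Hunchback type that opposes late larval fates. It was the lowest of the 10 genes, with 4.60 RPKM in replicate 1 (3.88 to 5.42) and 5.05 RPKM (4.40 to 5.76) in replicate 2, or 4.83 ± 0.32 RPKM. The replicates did not separate beyond counting error. Its level lay below the median of all genes, with 46.5% of genes lower.

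The late regulator lin-41 was well above hbl-1, which is also known as a target of let-7 family microRNAs. lin-41 encodes a TRIM-NHL protein that holds back adult fates in the epidermis and also acts in oocytes. It measured 31.6 RPKM in replicate 1 (29.8 to 33.5) and 30.2 RPKM (28.7 to 31.7) in replicate 2, or 30.9 ± 1.02 RPKM, and the intervals overlapped. lin-41 exceeded hbl-1 6.87-fold in replicate 1 (5.77 to 8.23) and 5.97-fold in replicate 2 (5.18 to 6.92).

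lin-46 acts downstream of lin-28 and encodes a gephyrin-like protein whose production LIN-28 is known to restrain. It measured 10.3 RPKM in replicate 1 (8.54 to 12.2) and 8.88 RPKM (7.53 to 10.4) in replicate 2, or 9.57 ± 0.97 RPKM. Its 127 and 153 reads were the fewest of the 10 genes, and the intervals overlapped. lin-28 RNA exceeded lin-46 RNA 4.69-fold (3.83 to 5.79) and 5.77-fold (4.82 to 6.95) in replicates 1 and 2. That ratio depends on the length used: with the same reads divided by the whole exon length, untranslated regions (UTRs) included, it was 2.74 (2.24 to 3.38) and 3.38 (2.82 to 4.07). The second ratio applies only where reads were counted over whole exons, and which exons were counted was not stated. RNA levels do not show how much protein either gene makes.

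lin-42, the worm homolog of the clock gene period, oscillates with the molting cycle and is known to repress microRNA genes. It measured 20.9 RPKM in replicate 1 (18.9 to 23.1) and 24.2 RPKM (22.4 to 26.2) in replicate 2, or 22.6 ± 2.31 RPKM, so it was somewhat higher in replicate 2. Its value carries an added uncertainty, because the annotation gives it 7 coding lengths from 297 to 1965 bp. The reads behind it came out whole in both replicates at only 1 of the lengths tried, 1794 bp, which corresponds to 396 and 636 reads. The margins there were 0.115 and 0.151 reads, wide enough for a length to pass by chance. For alg-1, both 3009 and 3072 bp gave whole reads. The length of 1794 bp is therefore not established, and the lin-42 reads and intervals rest on it. The length over all its coding exons, 2427 bp, did not give whole reads, whereas it did for each of the other 9 genes.

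The paralogous Argonaute genes alg-1 and alg-2, which encode the main carriers of microRNAs in the soma, were at nearly the same RPKM, which was not so per whole exon length. alg-1 measured 13.9 RPKM in replicate 1 (12.6 to 15.2) and 14.4 RPKM (13.3 to 15.5) in replicate 2, or 14.1 ± 0.34 RPKM. alg-2 measured 13.7 RPKM in replicate 1 (12.4 to 15.1) and 15.8 RPKM (14.6 to 17.04) in replicate 2, or 14.7 ± 1.45 RPKM. alg-1 was the higher in replicate 1 and alg-2 in replicate 2. The ratio of alg-1 to alg-2 was 1.01 (0.883 to 1.16) and 0.912 (0.816 to 1.02), so neither replicate separated the genes beyond counting error. Per whole exon length it was 0.705 (0.614 to 0.809) and 0.634 (0.568 to 0.709), with alg-2 the higher in both replicates. That length merges the exons of all transcripts, 6696 bp over 4 transcripts for alg-1 and 4142 bp over 2 for alg-2. A single transcript can be shorter, and the intervals do not cover this choice of length. Dividing by it applies only where the authors counted reads over whole exons, and which exons were counted was not stated. Where the paralogs share sequence, reads can be split between them, and the rule by which the authors assigned such reads was not stated.

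The GW182-like genes were higher than the Argonaute genes and differed from each other. ain-2 measured 44.4 RPKM in replicate 1 (41.7 to 47.1) and 39.0 RPKM (36.9 to 41.2) in replicate 2, or 41.7 ± 3.80 RPKM. ain-1 measured 29.1 RPKM in replicate 1 (26.8 to 31.6) and 24.95 RPKM (23.1 to 26.9) in replicate 2, or 27.03 ± 2.94 RPKM. Both ain-1 values lay below both ain-2 values. The ratio of ain-1 to ain-2 hardly moved, at 0.656 (0.592 to 0.726) in replicate 1 and 0.640 (0.583 to 0.702) in replicate 2. Summed RPKM was 68.7 ± 6.75 for the ain genes and 28.9 ± 1.79 for the alg genes. The ain sum was 2.66 times the alg sum in replicate 1 and 2.12 times in replicate 2.

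By mean level the order was lin-28, ain-2, lin-41, ain-1, lin-42, alg-2, alg-1, lin-14, lin-46 and hbl-1. In 8 of the 9 neighbouring pairs, both values of the higher gene lay above both values of the lower, the exception being alg-2 and alg-1. Counting intervals, compared within each replicate, lay apart in both replicates for 4 pairs, namely ain-2 from lin-41, lin-42 from alg-2, lin-14 from lin-46 and lin-46 from hbl-1. Compared across replicates as well, they lay apart for 3, without lin-14 and lin-46. With 2 values a gene, an exact permutation test cannot give a p-value below 0.333, so none was run.

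**Figure D2:**
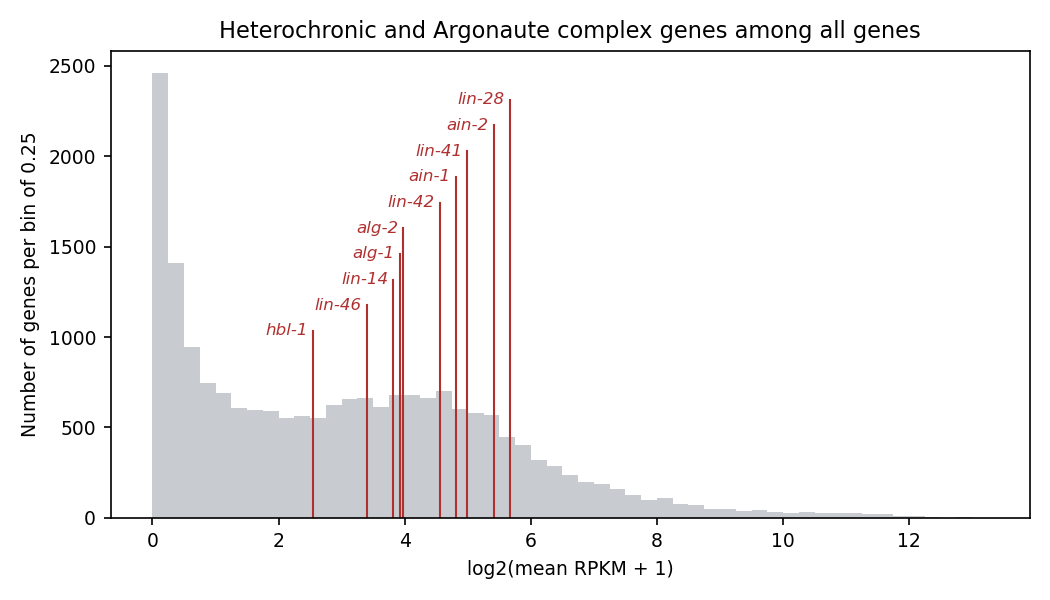
Histogram of log2(mean RPKM + 1) over all 19874 genes in bins of 0.25, with a red line at each of the 10 genes. The line heights only make room for the names. 9 of the 10 lines lie above the median of all genes at 6.17 RPKM and hbl-1 lies below it.

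The replicates were the only repeat measurement, and none of the 10 genes differed 2-fold between them on the log2(RPKM + 1) scale. Over all genes with a mean of at least 1 RPKM, 0.720% lay at or beyond 2-fold. The log2 differences of replicate 2 from replicate 1 ran from -0.21 for ain-1 to 0.20 for lin-42, with 5 genes higher and 5 lower in replicate 2, beside 44.2% of genes higher in replicate 2 overall. The median size of the difference, without its sign, was 0.17 for the 10 genes and 0.09 for the 6723 genes within their range of 280 to 2669 reads over both replicates, a comparison chosen after seeing the data.

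For 4 of the 10 genes the 95% counting interval of the ratio did not include 1, a limit passed by 17.4% of the 13596 genes with a coding length and a mean of at least 1 RPKM, and by 17.8% of those within the read range of the 10 genes. Both GW182-like genes were lower in replicate 2, and 10.6% of those genes passed in that direction. ain-1 stood at 0.857 of its replicate 1 level (0.767 to 0.958) and ain-2 at 0.879 (0.809 to 0.954). lin-42 and alg-2 were higher in replicate 2, where 6.78% passed, lin-42 1.16-fold (1.02 to 1.31) and alg-2 1.15-fold (1.01 to 1.31). These lay at the edge of counting error: with the replicates scaled to an equal RPKM sum, the intervals of lin-42 (0.998 to 1.29) and alg-2 (0.992 to 1.28) included 1, and those of ain-1 and ain-2 did not. Under that scaling 18.9% of genes at large passed, so the share among the 10 genes was near that background. The intervals of lin-28, lin-41, lin-14, lin-46, hbl-1 and alg-1 included 1. With 1 library on each side these are differences between libraries, not conditions.

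Some summed levels of tissue markers and stage genes also differed between these libraries. Of 4 germ line markers, 3 were lower in replicate 2, as were 55.5% of genes with a mean of at least 1 RPKM, and their levels summed to 293.3 and 268 RPKM in replicates 1 and 2. Of 5 neuronal markers, 4 were higher in replicate 2, with sums of 291.9 and 315.7 RPKM. Most of that rise came from snb-1, at 153.81 and 173.95 RPKM. The sums of the 3 intestinal markers, at 268 and 269.96 RPKM, and of the 3 muscle markers, at 178 and 173.5 RPKM, were closer between replicates. Of 7 epidermal and seam markers, 5 were higher in replicate 2, with sums of 129.5 and 135.87 RPKM. The 2 pharyngeal markers summed to 7.52 and 8.22 RPKM. Of 7 adult stage genes, 5 were lower in replicate 2, with sums of 9461 and 8888 RPKM. That fall came mainly from vit-6, vit-2 and col-19, while col-62 and col-7 were higher in replicate 2. The adult list held 1 gene beyond 2-fold, bli-2 at 19.66 and 7.66 RPKM, beside 0.720% of genes with a mean of at least 1 RPKM. Of 9 larval and embryonic genes, 3 were lower in replicate 2, with sums of 2370 and 2581 RPKM. That rise came from the single gene col-10, at 1428.69 and 1655.08 RPKM, while rol-6 fell from 187.3 to 167.41 RPKM. These sums therefore follow a few abundant genes and do not show a shift of stage. No marker of these tissue lists was at 0. The part that such shifts have in the differences of ain-1, ain-2, lin-42 and alg-2 was not tested.

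**Figure D3:**
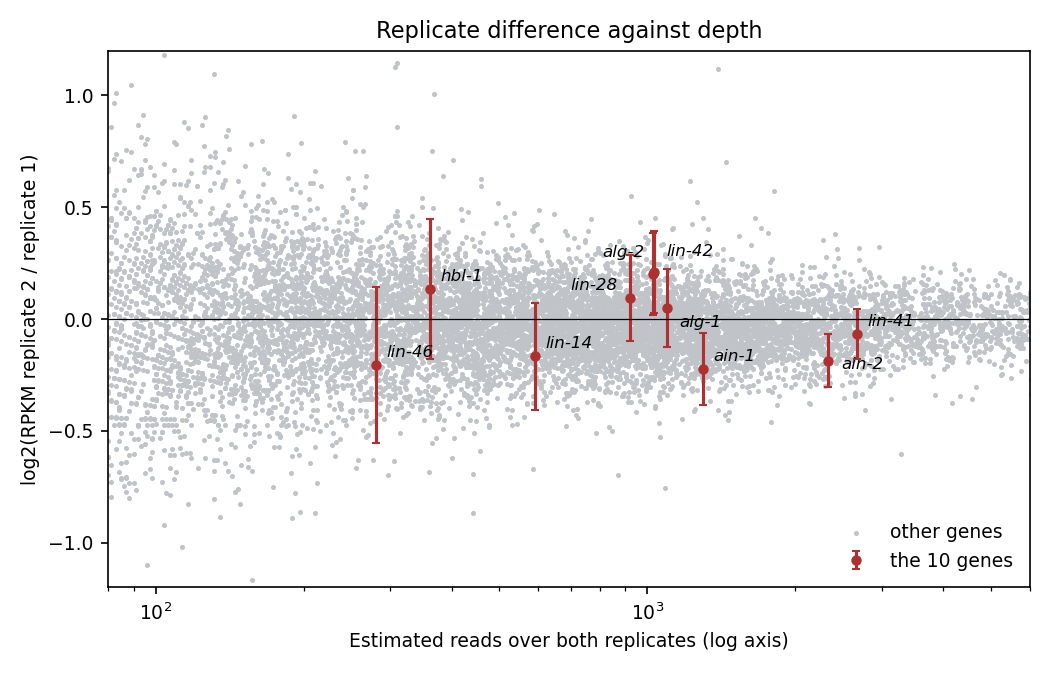
log2 ratio of RPKM in replicate 2 to replicate 1 against the estimated reads over both replicates (log axis), for genes with a mean of at least 1 RPKM (grey) and the 10 genes (red, with exact 95% counting intervals). The bars of ain-1 and ain-2 lie below 0, those of lin-42 and alg-2 lie above 0, and the other 6 cross it. The shallowest and the deepest genes lie outside the axes.

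The wider heterochronic pathway ran from 6.18 to 110.2 RPKM. Of 17 other genes linked to it, 16 had a row of their own, of which 10 reached 10 RPKM and none lay under 1 RPKM, with a median of 15.0 RPKM. The highest were apl-1, which encodes an amyloid precursor-like protein, at 110.2 ± 2.38 RPKM, kin-20, a casein kinase gene that works with lin-42, at 25.7 ± 0.82 RPKM, and blmp-1, a zinc finger factor gene, at 20.4 ± 0.46 RPKM. The lowest was the nuclear receptor gene nhr-25, at 6.18 ± 0.70 RPKM. Within the combined set of 22 genes lin-28 ranked 2, lin-41 ranked 3, lin-42 ranked 5, lin-14 ranked 14, lin-46 ranked 17 and hbl-1 ranked 22. daf-12, which carries m20 in this strain, was at 13.4 ± 0.21 RPKM, and din-1, the gene of its corepressor, was at 8.28 ± 0.42 RPKM. A level does not show whether the product works.

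Downstream of lin-41, the adult switch was represented by lin-29 and mab-10. lin-29 encodes the zinc finger factor that ends the larval program, and LIN-41 is known to repress it. The table names lin-29 by coordinates in 2 rows that each stand for part of the gene or a gene model, so it has no single value. In replicates 1 and 2, the row with the longer span was at 6.12 and 8.31 RPKM, and the shorter was at 0.90 RPKM and listed at 0. mab-10, a cofactor gene of lin-29, was at 9.77 ± 0.69 RPKM. The male factors mab-3 and dmd-3 were low, at 1.05 and 0.54 RPKM for mab-3 and 0.59 and 0.17 RPKM for dmd-3 in replicates 1 and 2. The dmd-3 values rested on about 5 and 2 reads, the latter under the floor of 3. Of the list of 10 targets and partners 9 had a row and 4 reached 10 RPKM, with a median of 9.77 RPKM. Its highest genes were let-60, the Ras gene and a let-7 target, at 64.7 ± 1.87 RPKM, then kin-20 and tim-1, a homolog of the clock gene timeless, at 14.7 ± 2.97 RPKM.

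alg-1 and alg-2 ranked 11 and 10 among the 15 listed Argonaute genes with a row. Together they held 6.41% of the summed RPKM of these 15 in replicate 1 and 7.34% in replicate 2. The list was chosen by hand and need not hold every Argonaute gene. The median of the 13 other Argonaute genes was 26.9 RPKM, and 11 of them reached 10 RPKM. The highest were wago-1 at 94.4 ± 5.99 RPKM, csr-1 at 61.1 ± 4.28 RPKM and hrde-1, listed as wago-9, at 46.99 ± 1.22 RPKM, which act in small RNA pathways of the germ line. The lowest was sago-2, at 0.54 ± 0.04 RPKM. The germ line markers gld-1, mex-3, glh-1 and pgl-1 were themselves at 107.98, 71.3, 52.1 and 49.5 RPKM. alg-4 and alg-5 have no value here.

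Genes that make or remove microRNAs ran from 2.60 to 67.4 RPKM. The 10 with a row had a median of 13.8 RPKM, beside 14.1 and 14.7 RPKM for alg-1 and alg-2 and 20.6 RPKM for the median of the 15 Argonaute genes, and 8 were at 10 RPKM or more. dcr-1, which encodes Dicer, was at 12.8 ± 1.89 RPKM, and drsh-1 and pash-1, which encode the nuclear processing complex, were at 12.3 ± 0.73 and 14.8 ± 0.49 RPKM. These 3 were picked with their values known. Of the whole list, pup-2, a terminal uridylyltransferase gene known to act with LIN-28 on let-7 precursors, was highest at 67.4 ± 2.97 RPKM. It was followed by paxt-1, listed as R05D11.6, at 42.1 ± 4.60 RPKM and dcs-1 at 41.7 ± 1.65 RPKM, both linked to XRN nucleases, and pup-3 was lowest at 2.60 ± 0.33 RPKM.

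The listed genes of silencing cofactors and mRNA decay had a higher median level. All 18 with a row reached 10 RPKM, and their median was 71.1 RPKM. Most are general factors of translation and mRNA turnover rather than microRNA proteins. The highest were rack-1, a ribosome-associated scaffold gene, at 2073 ± 109 RPKM, daf-21, the Hsp90 gene, at 1151 ± 26.5 RPKM and pab-1, a poly(A)-binding protein gene, at 1043 ± 40.5 RPKM. The decapping gene dcap-2 was lowest at 15.6 ± 0.35 RPKM. The deadenylase genes ccf-1 and ccr-4, also picked with their values known, were at 48.4 ± 2.78 and 49.6 ± 1.23 RPKM. Both values of each lay above both values of ain-2. Of the listed ntl genes, ntl-2 was at 57.2 ± 3.37 RPKM and ntl-1, listed as let-711, at 26.6 ± 2.77 RPKM.

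**Figure D4:**
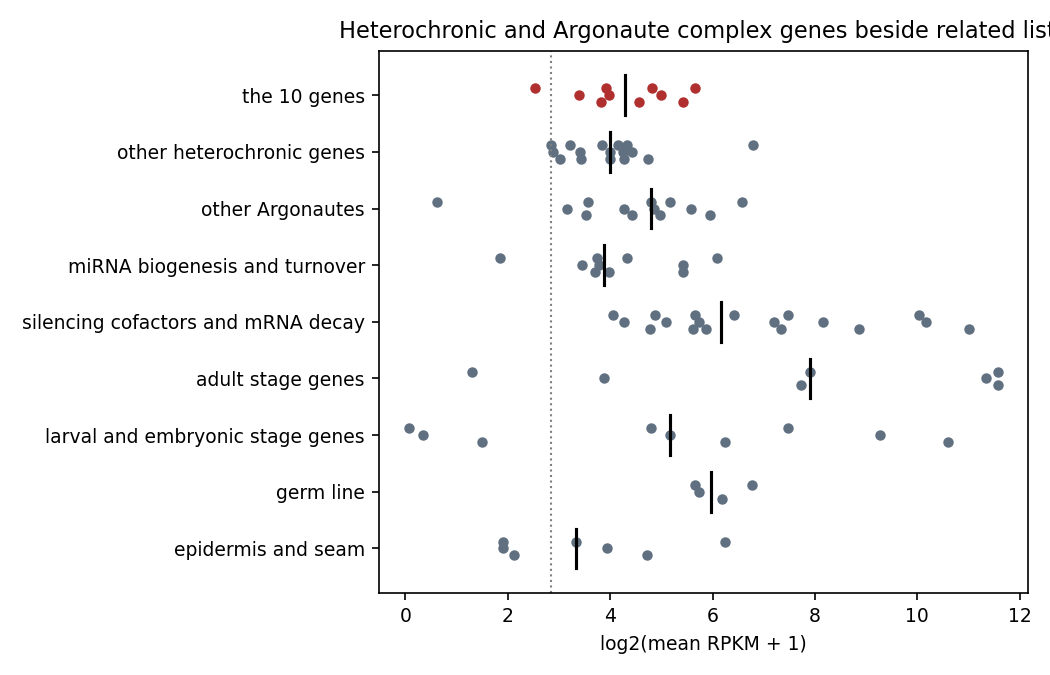
log2(mean RPKM + 1) of each gene in 9 lists, with a black bar at the median of each list and a dotted line at the median of all genes. The 10 genes (red) have a median of 18.7 RPKM, between the other heterochronic genes at 15.0 and the other Argonautes at 26.9 RPKM, and silencing cofactors lie higher at 71.1 RPKM.

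Adult and larval genes were present together in these cultures, labelled as of mixed stages, while the listed genes of the early embryo were low. Several adult genes were high, with vit-6 at 3055 ± 139 RPKM and vit-2 at 2602 ± 95.1 RPKM, both yolk protein genes, and the adult cuticle collagen gene col-19, which lies downstream of lin-29, at 3054 ± 192 RPKM. bli-1 was the lowest of the 7 adult genes, at 1.46 ± 0.20 RPKM. Among 9 larval and embryonic genes col-10 was highest at 1542 ± 160.1 RPKM, followed by col-17 at 617 ± 0.11 RPKM and rol-6 at 177 ± 14.1 RPKM. The early embryonic genes of that list were near the bottom, with pes-10 at 1.84 ± 0.15 RPKM and end-3 at 0.27 ± 0.01 RPKM. The end-3 values rested on about 2 and 3 reads. end-1, an endoderm gene of the early embryo, was lowest, listed at 0 and at 0.10 RPKM. Epidermal and seam markers, from tissue in which the heterochronic genes are best known to act, had a median of 9.15 RPKM. dpy-7 was highest at 74.9 ± 1.44 RPKM, followed by elt-3 at 25.4 ± 1.73 RPKM and elt-5, listed as egl-18, at 14.4 ± 1.05 RPKM, and the seam gene ceh-16 was lowest at 2.74 ± 0.06 RPKM. The intestinal, muscle and pharyngeal marker lists had medians of 64.4, 36.4 and 3.94 RPKM, and the neuronal list 38.3 RPKM.

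Most of the 10 genes have long annotated 3′ UTRs. In the WBcel235 annotation their annotated 3′ UTRs, merged over transcripts, ran from 153 bp for lin-46 to 1604 bp for lin-14, with a median of 1130 bp, beside 132 bp for 15877 genes with a 3′ UTR and a row in the table. 9 of the 10 exceeded the 90th percentile of 480 bp, lin-46 being the exception. The 3′ UTR is the part of the transcript in which most known microRNA sites lie. The next longest were those of alg-1 at 1554 bp, alg-2 at 1409 bp and hbl-1 at 1394 bp, followed by lin-41 at 1165 bp and lin-42 at 1095 bp. Those of ain-2, ain-1 and lin-28 measured 836, 624 and 531 bp. Merged coding lengths ran from 732 bp for lin-28 to 3444 bp for lin-41, and 9 of 10 exceeded the median of 1014 bp.

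These lengths bear on the levels, since the RPKM values were found to be set per coding length. Where the authors counted reads over whole exons, long UTRs would raise the values, and which exons were counted was not stated. The whole exon length used here is merged over transcripts, so a single transcript can be shorter. If the same reads are divided by the merged length, ain-2 comes first at 29.7 reads per kilobase of exon, scaled to depth as in RPKM. lin-28 is second at 25.03. lin-46, with its short UTR, then lies above alg-1 and lin-14, at 8.24 beside 6.49 and 6.46, while alg-2 is at 9.72. The ain sum is then 3.07 times the alg sum.

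By position, the 3 genes of highest level, lin-28, ain-2 and lin-41, all lie on chromosome I, and 4 of the 10 lie on chromosome X. Coding genes with a row had a median of 13.5 RPKM on chromosome I and 5.76 RPKM on chromosome X. In WBcel235 lin-28 spans 8407630 to 8410804, ain-2 4653467 to 4660153 and lin-41 9334800 to 9342496 on chromosome I. On chromosome X, hbl-1 spans 5822142 to 5827755, lin-14 11465560 to 11485871, alg-1 13949110 to 13956261 and ain-1 16613451 to 16616871. alg-2 lies from 873212 to 879885 and lin-42 from 1233236 to 1252359 on chromosome II, and lin-46 from 12968855 to 12970730 on chromosome V. The coding exons of none of the 10 genes overlap an exon of another annotated gene. Untranslated stretches of 3 genes do overlap one. lin-28 shares 16 bp with F02E9.1, a protein-coding gene on the opposite strand. On the same strand, alg-1 shares 96 bp with the snoRNA gene K02B9.10, and lin-14 shares 108 and 99 bp with the snoRNA genes T25C12.11 and T25C12.12.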

How the data were processed

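The authors deposited 1 table of RPKM values, 1 column for each replicate, per the file headers. CASAVA 1.8.2 is named in the submitters' processing notes. Aligner, counting method and build: not given in the sources used here. Libraries were made with a TruSeq RNA kit, per the labels' protocols. Of 19990 rows, 104 named by coordinates and 12 with a shared name were left out, and commas inside large values were removed. Of the 19874 genes, 18887 matched a name in Ensembl's WBcel235 annotation, release 115.

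Reads were estimated as RPKM times coding length times depth, with depth chosen so that low values came out whole. Within 0.1 read this held for 91.3% of 5687 values in replicate 1 and 91.9% of 3548 in replicate 2 for genes with 1 coding length, where chance gives 20%. For genes with several it held for 73.0% and 72.9% with all coding exons merged, and for 29.3% and 30.1% with the longest transcript. For single genes, the margin was the rounding of RPKM plus 0.02 reads.

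The genes and the 13 lists were chosen with earlier results of these data known. Named genes were the 10 genes and the 3 highest and the lowest gene of lists described; other genes named were chosen with their values known. Replicates were compared on log2(RPKM + 1), and no p-value was calculated. Alternatives were pseudocounts of 0.1 and 0.5, rescaling, filters, limits, whole exon length and leaving out each replicate. The depth and interval steps were tested on simulated data. Software was scipy 1.17.1, pandas 2.3.3, numpy 2.4.6 and matplotlib 3.10.9 in Python 3.11.15.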

Additional observations from a re-analysis of the deposited data

How the results depend on the processing

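The number of the 10 genes at or above the level limit was 8 at 10 RPKM and 5 at a limit of 20 RPKM. The number of all genes at or beyond 2-fold between replicates was 103, against 21 when genes under 5 RPKM were left out and 158 with no filter on low values; none of the 10 genes was among them in any of these. From single replicates, the median of the 10 genes ran from 17.4 to 19.98 RPKM, the ratio of alg-1 to alg-2 from 0.912 to 1.01 and the ratio of ain-1 to ain-2 from 0.640 to 0.656. The 4 replicate ratios beyond counting error kept their direction under both rescalings. Under both other pseudocounts they had to, since adding the same value to each replicate cannot change a direction. With the median ratio set to 0, 4 of the 10 genes passed, beside 16.7% of genes at large. With an equal RPKM sum 2 passed, beside 18.9% of genes at large, a share near that of the 10 genes. The reported order held in 8 of 9 neighbouring pairs in replicate 1 alone, 9 in replicate 2 alone and 7 per whole exon length. In ratios per whole exon length, chosen after seeing the data, alg-1 to alg-2 was 0.667 instead of 0.960, ain-1 to ain-2 0.675 instead of 0.648 and lin-28 to lin-46 3.04 instead of 5.19. Such ratios apply only where the authors counted reads over whole exons. No paired analysis was possible because there is 1 group of 2 samples. Depth limits lin-46 and hbl-1 most, since they rest on the fewest reads.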
